A study of Mus musculus with 5 samples.

Results

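The nuclear-encoded subunits of respiratory chain complexes I, III, IV and V were compared between an insulin-specific cytotoxic T cell clone and T cells from mice transgenic for its receptor. Genes were chosen by symbol: those starting Ndufa, Ndufb, Ndufc, Ndufs, Ndufv or Ndufab followed by a digit, Uqcr, Cyc1, the Cox4 to Cox8 subunits and Atp5. Each was read by its brightest probe set, the one with the highest mean signal over all 5 arrays among the probe sets annotated to exactly 1 symbol. This gave 78 of the 18193 genes with such a probe set: 35 of complex I, 9 of complex III, 17 of complex IV and 17 of complex V. Brightness was the value that picked the probe set. The group was put together with the difference between clone and transgenic cells already known, so its counts below describe these arrays and are no independent evidence of a direction.

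The respiratory chain sits in the inner mitochondrial membrane. Complex I oxidises NADH and passes the electrons to ubiquinone, complex III passes them on to cytochrome c, and complex IV, cytochrome c oxidase, hands them to oxygen. These 3 complexes pump protons, and complex V, the ATP synthase, makes ATP from the resulting gradient. A few of their proteins are encoded in mitochondrial DNA and the rest, including every gene described here, in the nucleus. T cells are known to gain mitochondrial mass and raise respiration and glycolysis after activation.

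Total RNA from 5 cultures was hybridised to Affymetrix mouse arrays, on which a set of short probes gives 1 signal per transcript. The clone group was 3 separately frozen vials of G9C8 cells, an in vitro cultured CD8 T cell clone, so its 3 arrays are 3 cultures of 1 clone. The transgenic group was spleen cells of 2 NOD.G9C8 mice on the NOD/LtJ background, aged 4 to 8 weeks, 1 array per mouse. All 5 cultures, controls included, had been exposed for 3 days to an insulin B chain peptide at 10 µg/ml, then kept for 2 days in interleukin 2 at 5 IU/ml, so there is no unstimulated group. The peptide's effect was therefore not measured.

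The deposited signals had been scaled to a trimmed mean of 500 on each array, with medians between 132.2 and 141.9. The summed signal of 5 T cell marker genes was 34071 to 38043 on the clone arrays and 46431 to 50799 on the transgenic arrays. Cd8a and Cd8b1, which define the labelled cell type, were at 7175 or more on all 5 arrays. Both were called lower in the clone (-0.68 and -0.65), as was Cd2 (-1.75), while Cd3e (0.19) and Cd3g (-0.06) were not called; these values are differences on the log2(signal + 20) scale. The 9 myeloid markers summed to 5085 to 5690 on the clone arrays and 13184 to 14270 on the transgenic arrays. Of the 7 tested, 6 were called lower in the clone, against 21.7% of all genes tested. Lyz2 had the largest difference, at 279 ± 45.1 (SD, n = 3) and 4523 ± 1451 (SD, n = 2). Cd68 went the other way at 0.50, with all 3 clone arrays above both transgenic arrays, and was not called. The 5 B cell markers summed to 538 to 777 and to 1336 and 1349. Only Cd79b was called lower in the clone, with group means of 26.7 and 624. Ms4a1 (-0.24), Blk (-0.69) and Pax5 (0.16) were not called, and Cd79a (-0.02) was below the filter and not tested. None of the markers was at 0. The part of these other cells in the differences below was not tested, and in such bulk samples fewer cells of a type and less RNA per cell cannot be told apart.

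Of the 78 genes, 75 passed the filter on low signals (a mean of at least 88.2) and 42 of them, 56.0%, were called higher in the clone, against 22.0% of all 12446 genes tested. Another 4, or 5.33%, were called lower, against a background of 21.7%, and 29 were not called. Cox6b2, among the lower ones, passed the filter only through its transgenic signals. A call is an adjusted p under 0.05 from limma's moderated test on log2(signal + 20), with the Benjamini-Hochberg adjustment over all genes tested. Differences are clone minus transgenic on that scale, where 1 is a doubling. The median over the 75 was 0.26, a median fold of 1.2, and the values ran from -1.93 for Cox6b2 to 1.15 for Ndufa5. The median over all genes tested was -0.01. All 3 clone arrays lay above both transgenic arrays for 55 of the 78 genes and below both for 8, while 15 overlapped; over all genes tested these shares were 31.9% above and 32.6% below. Most of the genes thus differed by less than a doubling: 17 of 78 passed 0.5 and 3 passed 1 upward.

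Bright genes were called more often in any case, so the comparison was also made among them. Of the 4416 genes with a mean signal of at least 1000, 33.2% were called higher and 26.3% lower. Of the 68 respiratory chain genes in that range 41 were called higher, 60.3%, and 3 lower, 4.41%. Leaving out a clone array left 28 to 41 genes called higher. Over all genes, 4772 to 5492 were then called in either direction, against 5448 with every array. Leaving out a transgenic array leaves only 1 in that group, so only medians are given. The median difference in complexes I, III, IV and V was 0.35, 0.35, 0.14 and 0.28 without transgenic array 1. It was 0.31, 0.25, 0.09 and 0.28 without transgenic array 2.

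**Figure D1:**
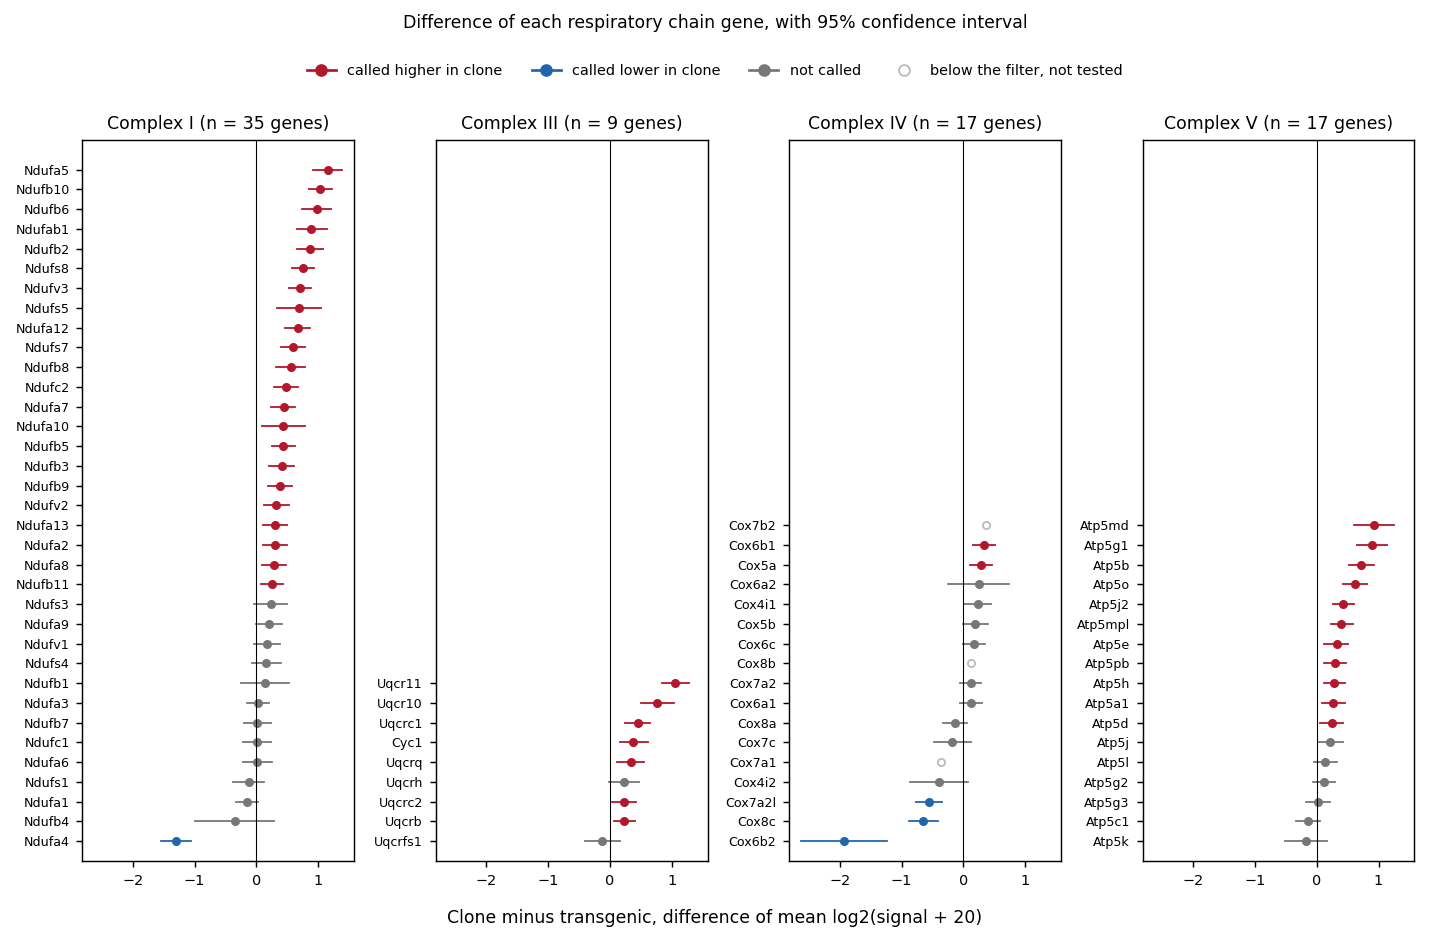
Each point is 1 gene: its clone minus transgenic difference of mean log2(signal + 20), with its 95% confidence interval as a bar, in 1 panel per complex. Red marks the 42 genes called higher, blue the 4 called lower, grey those not called, and open circles the 3 genes below the filter. Complexes I, III and V lie mostly right of 0, while complex IV clusters near 0 with its 3 lower genes at the bottom.

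The complexes differed in their counts. In complex I 22 of 35 genes were called higher and 1 lower, with a median difference of 0.32. In complex III 7 of 9 were higher and none lower, with a median of 0.34. In complex V 11 of 17 were higher and none lower, with a median of 0.28. The shares called higher were 62.9%, 77.8% and 64.7% in complexes I, III and V. Over all genes tested 22.0% were called higher and 21.7% lower. Among genes with mean signals of at least 1000 these shares were 33.2% and 26.3%. Both pairs of shares are also the background for the smaller groups of subunits below. In complex IV 2 of the 14 genes tested were higher and 3 lower, Cox6b2 among these, with a median of 0.12. Over its 10 common isoforms alone 2 were higher and 1 lower, with a median of 0.14. The medians also depend on the probe set read: with the mean over probe sets complex I was at 0.26 and complex IV at 0.00. Second probe sets of at least 1000 existed for 12 genes whose brightest reached 10000, mostly in complexes IV and V. In 10 of these the second gave the larger difference. Whether the complexes differ from each other was not tested, and the medians shift with the scaling of the arrays, from 0.19 to 0.42 in complex I and from 0.05 to 0.21 in complex IV. Complex IV was also bright, though signals of different probe sets are not comparable as transcript levels: the median of the mean signals was 5793 in complex IV, and 12020 over its 10 common isoforms, against 4238 in complex I, 4814 in complex III and 7832 in complex V.

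**Figure D2:**
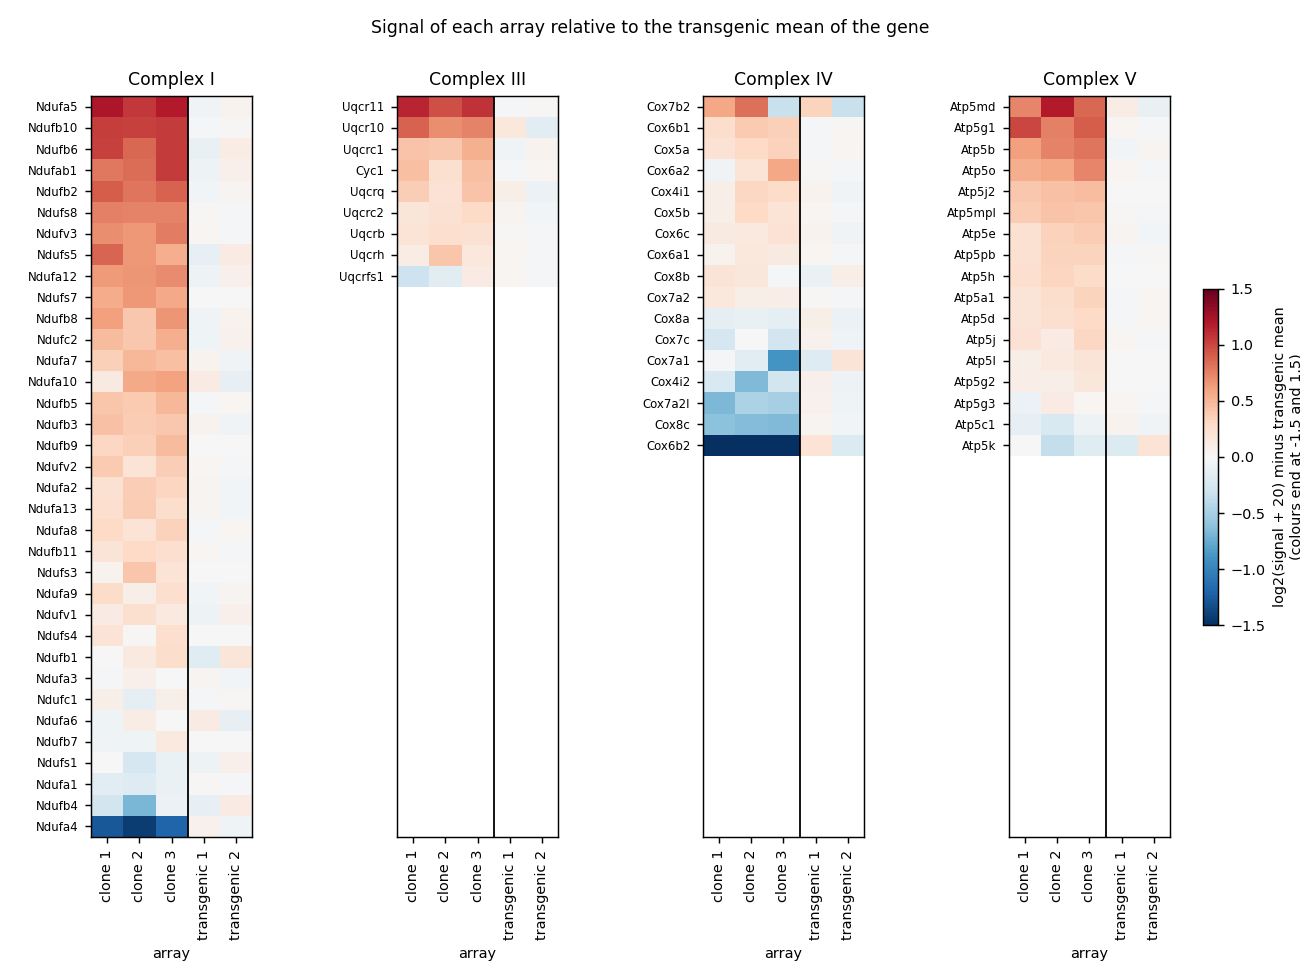
Each row is a gene and each column an array; the colour gives log2(signal + 20) minus the mean of the 2 transgenic arrays for that gene, with colours ending at -1.5 and 1.5. Within each complex genes are ordered by their difference. The 3 clone columns carry the same colour in most rows of complexes I, III and V, and the blue rows at the foot are Ndufa4, Cox7a2l, Cox8c and Cox6b2.

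Promoter sequences from RefSeq (GRCm38.p6), 250 bases before to 50 after the start of the gene, were found for 64 of the 78 genes. They were searched on both strands for the letters GCGCATGCG (bound by NRF1), CCGGAAGT (bound by GABPA and other ETS factors) and AAGATGGCG (bound by YY1), a set of factors known to act on respiratory chain genes. The NRF1 motif is nearly palindromic and can match both strands at 1 place. The NRF1 letters were in 7 of 64 promoters (10.9%), the ETS letters in 5 (7.81%) and the YY1 letters in 6 (9.38%). Over the 10088 genes tested that have a promoter these shares were 3.85%, 8.71% and 3.40%, and over all 27025 promoters 1.95%, 4.31% and 1.64%. Any of the 3 was found in 17 of the 64 promoters (26.6%), against 15.0% of the genes tested. By complex these were 6 of 32 in complex I, 3 of 5 in complex III, 2 of 12 in complex IV and 6 of 15 in complex V. Of the 17 genes with any of the 3, 6 were called higher, none lower and 11 not called; of the 47 with none, 28 were called higher and 3 lower. A match is a run of letters, not a shown binding site.

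Promoters of a gene higher in the clone with 2 of the motifs (Uqcr11), of a higher gene with the YY1 letters just after its start (Ndufs7) and of the complex I-named gene that was lower (Ndufa4) are shown as examples, 5′ to 3′ on the strand of the gene, with motif letters in capitals. Uqcr11 is on the minus strand at chr10:80406772-80407071, Ndufs7 on the plus strand at chr10:80249199-80249498 and Ndufa4 on the minus strand at chr6:11907401-11907700.
Uqcr11: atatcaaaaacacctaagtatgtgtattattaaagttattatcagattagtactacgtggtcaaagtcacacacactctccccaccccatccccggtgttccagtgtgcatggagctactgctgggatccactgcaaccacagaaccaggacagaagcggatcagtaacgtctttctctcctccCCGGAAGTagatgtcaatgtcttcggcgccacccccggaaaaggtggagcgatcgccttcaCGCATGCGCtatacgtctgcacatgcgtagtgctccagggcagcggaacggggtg
Ndufs7: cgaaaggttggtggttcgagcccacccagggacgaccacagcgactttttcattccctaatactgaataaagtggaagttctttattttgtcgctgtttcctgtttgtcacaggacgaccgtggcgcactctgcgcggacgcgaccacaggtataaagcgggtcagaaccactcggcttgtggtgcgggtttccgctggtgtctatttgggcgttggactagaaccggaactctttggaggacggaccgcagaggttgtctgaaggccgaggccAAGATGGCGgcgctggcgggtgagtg
Ndufa4: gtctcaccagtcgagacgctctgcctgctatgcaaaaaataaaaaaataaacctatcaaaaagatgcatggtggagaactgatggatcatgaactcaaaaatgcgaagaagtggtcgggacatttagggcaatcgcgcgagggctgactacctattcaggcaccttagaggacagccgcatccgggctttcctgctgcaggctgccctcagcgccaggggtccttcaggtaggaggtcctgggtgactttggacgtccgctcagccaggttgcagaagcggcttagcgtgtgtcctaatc
In Uqcr11 the capitals mark, in order, the ETS letters and the NRF1 letters read on the opposite strand. In Ndufs7 they mark the YY1 letters, and Ndufa4 has none of the 3 in this window. These examples do not stand for the list, since the share called higher was lower among genes with a motif, a difference that was not tested.

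In complex I, the catalytic core had 6 genes on the arrays, and 3 of them were called higher. Ndufs8 and Ndufs7, which carry iron-sulfur clusters close to the ubiquinone site, differed by 0.75 ± 0.08 and 0.59 ± 0.08 (± SE here and throughout), with adjusted p of 0.000128 and 0.000678 (limma). Ndufv2, an iron-sulfur protein of the NADH-binding end, was 0.32 higher. Ndufv1, which binds NADH and flavin, and Ndufs3 were above the transgenic arrays on all 3 clone arrays without being called (0.17 ± 0.09 and 0.23 ± 0.11), and Ndufs1 overlapped between groups. The other probe sets of Ndufv1, at mean signals of 2027 and 1888, gave 0.70 and 0.60, and the gene was called with the mean over probe sets and under median scaling. A second probe set of Ndufs8, at a nearly equal mean signal of 4658, gave a difference of 0.10. All its further probe sets, at mean signals from 4407 down to 913, also gave smaller differences than the brightest, from 0.11 to 0.34.

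Of the 29 accessory subunits of complex I, which surround the core and are needed for its assembly and stability, 19 were called higher and 1 lower. The highest was Ndufa5, a subunit of the arm that reaches into the matrix: its signals were 2379, 2127 and 2325 on the clone arrays and 972 and 1054 on the transgenic arrays. All 3 clone arrays were more than 2 times the higher transgenic array, a 2.22-fold difference (log2 difference 1.15 ± 0.10, adjusted p 4.78e-05, limma). Ndufb10, of the arm that lies in the membrane, gave 5038, 4999 and 5078 on the clone arrays and 2421 and 2486 on the transgenic arrays. The 3 clone values lay close together and the groups were 2.05-fold apart (adjusted p 2.58e-05, limma). Ndufb6, also of the membrane arm, gave 5720.1, 5092 and 5779 on the clone arrays and 2587 and 3014 on the transgenic arrays. These groups did not overlap either, at 1.97-fold by the brightest probe set, but a second probe set of the gene at a mean signal of 3706 gave a log2 difference of only 0.23.

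Ndufab1 encodes the mitochondrial acyl carrier protein, which is both a complex I subunit and a carrier in mitochondrial fatty acid synthesis. Its brightest probe set gave 4464, 4602 and 5340.0 on the clone arrays and 2433 and 2715 on the transgenic arrays, a 1.86-fold difference without overlap (adjusted p 0.000269, limma). The next brightest, at a mean signal of 451, went the other way with a difference of -0.83, and the remaining 3, at mean signals under 90, gave -0.49, -0.08 and 0.08. Ndufa12 was at 0.67 ± 0.09 by its brightest probe set. Its next brightest, at mean signals of 3656 and 2630.0, gave 0.44 and 0.58, and only its dimmest, at 221, went the other way with -1.38.

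The Ndufb family, which belongs to the membrane arm, had 8 of 11 genes called higher and none lower, with a median difference of 0.41 and single values from -0.35 to 1.03. Beside Ndufb10 and Ndufb6, Ndufb2, Ndufb8, Ndufb5, Ndufb3, Ndufb9 and Ndufb11 were higher, by 0.86 for Ndufb2 down to 0.25 for Ndufb11. Ndufb7 and Ndufb1 overlapped between groups, as did Ndufb4, whose mean signal of 105 lay just inside the filter. Further accessory subunits called higher were Ndufv3, Ndufs5, Ndufc2, Ndufa7, Ndufa10, Ndufa2, Ndufa13 and Ndufa8, from 0.70 for Ndufv3 down to 0.28 for Ndufa8. Of these Ndufa10 was nearest to the threshold, with an adjusted p of 0.0469 by limma, and clone array 1 was only just above the higher transgenic array.

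The brightest probe set of complex I was that of Ndufa1, a membrane-anchored accessory subunit, with 10321, 10063 and 10742 on the clone arrays and 11669 and 11430.3 on the transgenic arrays. Here the clone arrays were all below the transgenic ones by a small margin, at -0.15 ± 0.08 (95% confidence interval -0.33 to 0.02), and the gene was not called. Ndufa3, Ndufa6 and Ndufc1 lay within 0.02 of no difference and overlapped between groups. For Ndufa3 that probe set is of the _x_at kind, which can bind other transcripts, and its second, at a mean signal of 8678, gave 0.32 and was called when such probe sets were left out. Ndufa9 and Ndufs4 were above the transgenic arrays on every clone array but not called (0.21 ± 0.09 and 0.16 ± 0.10).

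Ndufa4 was the 1 complex I-named gene called lower. It carries the name of a complex I subunit, but its protein is now known to be part of complex IV. Its signals were 1456, 1304 and 1530.2 on the clone arrays and 3704 and 3382 on the transgenic arrays. The lowest transgenic array was more than 2 times the highest clone array, and the gene was 2.46-fold lower in the clone (log2 difference -1.30 ± 0.11, adjusted p 3.31e-05, limma). Counted with complex IV, it leaves complex I at 22 of 34 higher, none lower and a median of 0.35, and complex IV at 2 higher and 4 lower of 15 tested. That regrouping was chosen after the values were seen.

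**Figure D3:**
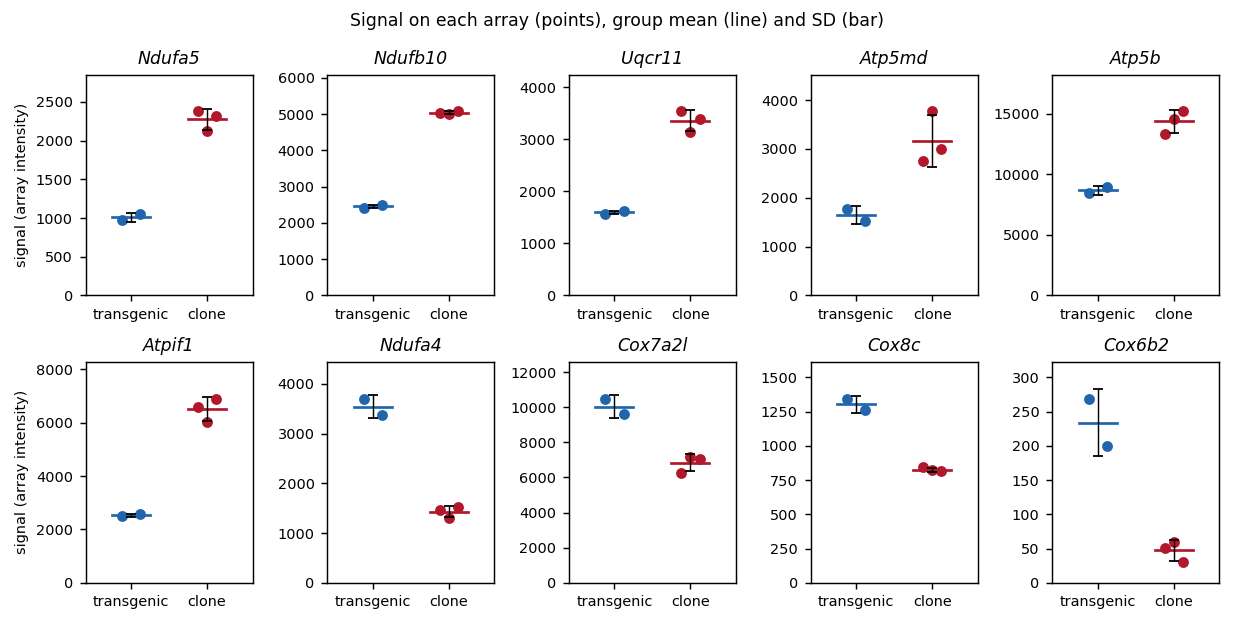
Signal (array intensity, axis from 0) of 10 genes on each array: points are arrays, the horizontal line is the group mean and the bar its SD (3 clone and 2 transgenic arrays). Ndufa5, Ndufb10, Uqcr11, Atp5md, Atp5b and Atpif1 were higher in the clone and Ndufa4, Cox7a2l, Cox8c and Cox6b2 lower, with no overlap between groups in any of the 10 panels.

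In complex III the largest differences were in 2 of its smallest subunits. Uqcr11 gave 3535, 3144 and 3391 on the clone arrays and 1569 and 1620.2 on the transgenic arrays, and the groups were 2.09-fold apart (log2 difference 1.06 ± 0.09, adjusted p 4.69e-05, limma). Uqcr10 gave 3535, 3111 and 3210.4 on the clone arrays and 2125 and 1715 on the transgenic arrays, a 1.71-fold difference (adjusted p 0.000895, limma), with the transgenic arrays further apart than for Uqcr11. Of the core proteins, which hold the complex together on the matrix side, Uqcrc1 gave 5132, 5074 and 5523 on the clone arrays and 3674 and 3983 on the transgenic arrays. The groups were clearly apart, at 0.45 ± 0.09. Uqcrc2 was at 0.23 ± 0.08, just past the threshold (adjusted p 0.0488, limma), though its second probe set at a mean signal of 5945 gave 1.05.

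Cyc1, cytochrome c1, carries the haem that reduces cytochrome c. It gave 4263, 3674 and 4279 on the clone arrays and 3045 and 3183 on the transgenic arrays and was called higher at 0.38 ± 0.10. The other electron-carrying subunit encoded in the nucleus, the Rieske iron-sulfur protein Uqcrfs1, overlapped between the groups, at -0.12 ± 0.13, with clone arrays from 4861.5 to 6614. Uqcrb had the highest mean signal in the complex, with 15479, 16047 and 15806 on the clone arrays and 13621 and 13270.4 on the transgenic arrays. Its groups did not overlap, yet differed by only 1.17-fold, where a second, dimmer probe set gave a log2 difference of 0.88. Uqcrq was called higher at 0.34 ± 0.10, with dimmer probe sets the other way, and Uqcrh, the hinge protein, was not called (0.23 ± 0.10).

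In complex IV 14.3% of the genes tested were called higher and 21.4% lower, against 22.0% and 21.7% of all genes tested. Among its 10 common isoforms, the forms found in most tissues, Cox6b1 and Cox5a were called higher. Cox5a had the highest mean signal in complex IV, with 15624, 16651 and 17084 on the clone arrays and 13258 and 13729 on the transgenic arrays. All clone arrays were above the transgenic ones, by 1.22-fold (log2 difference 0.28 ± 0.08, adjusted p 0.0186, limma). Cox6b1, which faces the space between the membranes, gave 12123, 13227 and 12918 on the clone arrays and 9916 and 10197 on the transgenic arrays, a 1.27-fold difference without overlap. Cox4i1, Cox5b, Cox6c, Cox6a1 and Cox7a2 were each above the transgenic arrays on all 3 clone arrays, by 0.12 to 0.23, and were not called. The 95% confidence interval for Cox4i1, the common form of subunit 4, not adjusted for the number of genes, was 0.01 to 0.44, and the gene was called under each of the 3 other scalings. Cox8a was below on all 3 clone arrays at -0.13 ± 0.09 and Cox7c overlapped.

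Cox7a2l was lower in the clone. Its protein is known for joining complexes III and IV into a supercomplex and is not required for complex IV itself. It gave 6267, 7185 and 7068 on the clone arrays and 10483 and 9583 on the transgenic arrays, so that all clone arrays lay below, and was 1.47-fold lower (log2 difference -0.55 ± 0.09, adjusted p 0.00169, limma). A second probe set of nearly the same mean signal, 7997, gave -0.36.

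The 7 tissue-restricted isoforms of complex IV had 4 genes that passed the filter, of which 2 were called lower and none higher. The testis isoform Cox8c gave 842, 820.2 and 814 on the clone arrays and 1344 and 1260.0 on the transgenic arrays, 1.56-fold lower in the clone (adjusted p 0.00127, limma). A second probe set of Cox8c, at a mean signal of 529, gave -0.32 and overlapped between groups. With the mean over probe sets Cox8c was not called. The testis isoform Cox6b2 gave 50.9, 60 and 30.9 on the clone arrays and 269 and 199.1 on the transgenic arrays. The clone values were below the filter level of 88.2 and the transgenic values above it. The gene thus passed the filter only through the transgenic arrays. Its log2 difference of -1.93 ± 0.30 also depends on the constant added: it was -2.32 with 1 and -1.55 with 50. Cox6a2, the heart and skeletal muscle form, was at 262 ± 63.3 (SD, n = 3) and 214 ± 2.97 (SD, n = 2) and overlapped, and Cox4i2, known from lung and hypoxia, was at 189.0 ± 32.5 (SD, n = 3) and 252 ± 19.7 (SD, n = 2) and was not called. Cox7a1 and Cox8b, muscle forms, and Cox7b2, a testis form, had mean signals of 28.9, 18.1 and 19.7 and were not tested. Cox7a1 was the nearest gene outside the filter and Ndufb4 and Cox6b2, at 105 and 122, the nearest inside it.

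In complex V, the F1 head makes ATP, the c ring turns in the membrane, and the stalk and other subunits of the Fo part hold the 2 together. In the head 4 of 5 genes were called higher. Atp5b, the catalytic beta subunit, gave 13313, 14592 and 15197 on the clone arrays and 8424 and 8945 on the transgenic arrays. Both transgenic values lay well below the lowest clone value, and the 1.65-fold difference was the largest among the 17 respiratory chain genes with mean signals of at least 10000 (adjusted p 0.000285, limma). Its partner Atp5a1, the alpha subunit, differed by 0.26 ± 0.08, Atp5e by 0.32 ± 0.09 and Atp5d by 0.24 ± 0.08. The second brightest probe set of Atp5a1, at a mean signal of 4666, gave -0.03, while that of Atp5d, at 4809, gave 0.47. Atp5c1, the gamma subunit that turns within the head, was below on all 3 clone arrays without being called, at -0.14 ± 0.08.

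The 3 genes of the c ring encode the same mature protein with different import sequences. Atp5g1 gave 2756, 2333 and 2582 on the clone arrays and 1396 and 1340.2 on the transgenic arrays, a 1.85-fold difference without overlap (log2 difference 0.89 ± 0.10, adjusted p 0.000224, limma). Atp5g2 was above the transgenic arrays on all clone arrays at 0.12 ± 0.08 and was not called. Atp5g3, which had the highest mean signal in complex V, gave 11628, 13409.6 and 12526 on the clone arrays and 12569 and 12063 on the transgenic arrays. Its groups overlapped, at 0.02 ± 0.09.

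Of the 9 stalk and other Fo subunits 6 were called higher. Atp5md, a small subunit also called DAPIT that is linked to the pairing of ATP synthases, gave 2747, 3770.3 and 2990.1 on the clone arrays and 1772 and 1522 on the transgenic arrays. All clone arrays were higher although they were themselves spread out, and the difference was 1.9-fold (log2 0.93 ± 0.14, adjusted p 0.00105, limma). Atp5o, which ties the stalk to the head, gave 7561, 7713 and 8609 on the clone arrays and 5272 and 5054 on the transgenic arrays. It was 1.54-fold higher by that probe set, while its second probe set gave a log2 difference of 1.84. Atp5j2, Atp5mpl, Atp5pb and Atp5h were higher by 0.28 to 0.43. The second brightest probe set of Atp5h, at a mean signal of 10798, gave only 0.05, while those of Atp5j2 and Atp5pb gave 0.56 and 0.45. Atp5j and Atp5l were above on all clone arrays but not called, Atp5j with the adjusted p nearest above the threshold (0.077, limma), and Atp5k overlapped.

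**Figure D4:**
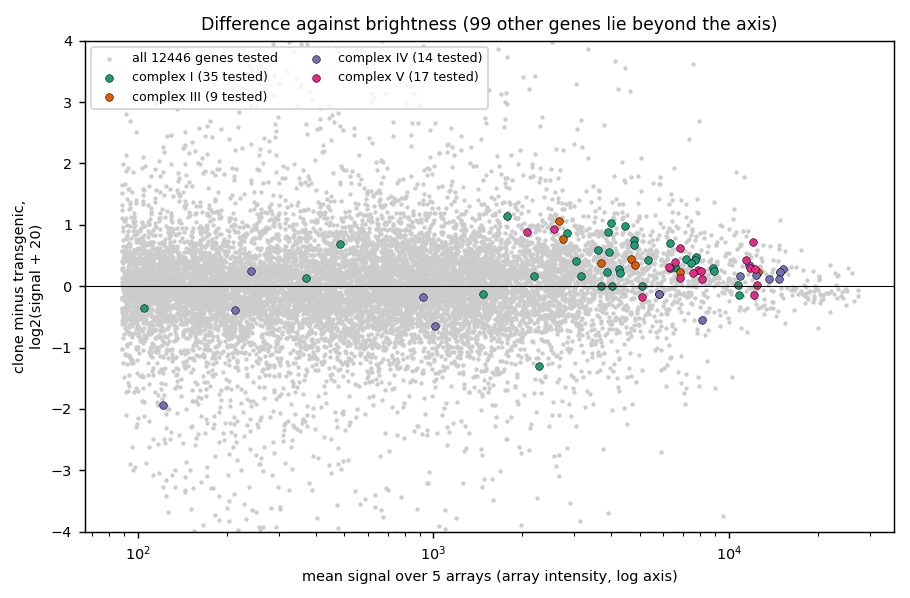
Clone minus transgenic difference on the log2(signal + 20) scale against the mean signal over 5 arrays (log axis), for all 12446 genes tested (grey; 99 other genes lie beyond the plotted range of -4 to 4) and for the tested genes of each complex (colours). The respiratory chain genes sit in the bright part of the plot, mostly above 0 and by less than 1.

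The size of the difference had no steady relation to brightness. Over the 7 tested genes with mean signals under 1000 the median was -0.18, with 1 called higher and 1 lower. The median was 0.45 over the 27 respiratory chain genes with mean signals from 1000 to under 5000, of which 18 were called higher. It was 0.28 over the 24 genes from 5000 to under 10000, with 16 called higher, and 0.23 over the 17 genes at 10000 or more, with 7 called higher. Over all 199 genes at 10000 or more the median was 0.01. Across the 75 genes tested, Spearman's rho between difference and mean signal was -0.06, and -0.20 over the 71 without the tissue-restricted isoforms; genes share arrays and are not independent points.

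Probe sets of the same gene were also compared. For the 34 genes with 2 or more probe sets at mean signals of at least 1000, the second brightest gave the larger difference in 23 and the smaller in 11, with medians of 0.40 and, for the brightest, 0.27. For the 12 of these whose brightest probe set reached 10000, mostly genes of complexes IV and V, the second gave the larger difference in 10, with medians of 0.37 against 0.23. Cox6a1 is an example, at 0.12 by the brightest and 0.57 by the second. Whether the signal of the brightest probes levels off was not tested. In 12 genes at least 1 further probe set had the opposite sign and lay over 0.5 from the brightest: Atp5a1, Atp5g1, Atp5j2, Atp5k, Cox5b, Cox6a2, Ndufa12, Ndufab1, Ndufb2, Ndufb8, Ndufb9 and Uqcrq. The brightest of these opposite probe sets was that of Atp5k, at a mean signal of 4570.

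**Figure D5:**
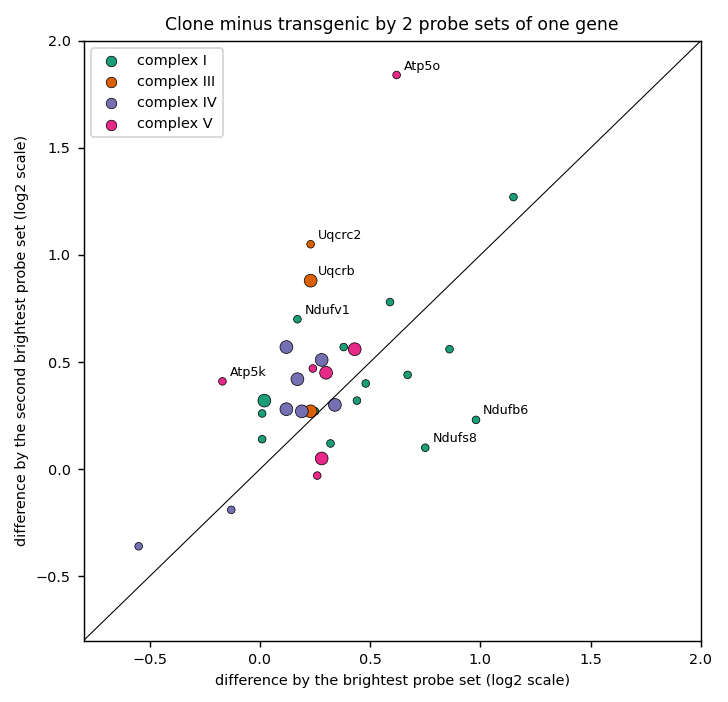
Each point is 1 of 34 genes with a second probe set at a mean signal of at least 1000; the axes give the clone minus transgenic difference on the log2 scale by the brightest (horizontal) and the second brightest probe set (vertical), with the line of equal differences. Large points are the 12 genes whose brightest probe set reached 10000, and 10 of these lie above the line.

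The chain's other entry points were also measured. Complex II, succinate dehydrogenase, had all 4 of its genes called higher: Sdha by 1.23-fold, Sdhb by 1.42-fold, Sdhc by 1.56-fold and Sdhd by 1.37-fold, with no overlap between groups. Of 6 genes for electron carriers and other feeding enzymes 2 (33.3%) were called higher and none lower, against 22.0% and 21.7% of all genes tested. One was Gpd2, the mitochondrial glycerol 3-phosphate dehydrogenase that passes electrons from cytosolic NADH to ubiquinone, with 1133, 864 and 895 on the clone arrays and 193.3 and 245 on the transgenic arrays. Its clone signals were over 3 times the higher transgenic one (4.11-fold, adjusted p 3.45e-05, limma). The other was Etfb, of the flavoprotein that takes electrons from fatty acid oxidation, at 0.37 ± 0.11. Cycs, cytochrome c itself, overlapped between groups and was not called (0.20 ± 0.11).

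Assembly factors, which build the complexes and are not part of them, had 11 of 39 tested genes called higher and 3 lower, with a median difference of 0.12. The shares, 28.2% and 7.69%, compare with 22.0% and 21.7% of all genes tested. Ndufaf2, needed to complete complex I, gave 942, 1014 and 808 on the clone arrays and 199.8 and 270.4 on the transgenic arrays, a 3.71-fold difference (adjusted p 4.92e-05, limma). Ndufaf4 was 1.92-fold and Ndufaf8 1.41-fold higher, and Acad9, also a complex I factor, was lower at -0.44 ± 0.16. For complex III Uqcc2 was higher (0.70 ± 0.12) and Uqcc3 and Uqcc1 lower (-0.68 ± 0.14 and -0.41 ± 0.14). For complex IV 5 of 17 were higher and none lower, among them Cox15, which makes haem A (2.23-fold), Cox17, a copper carrier (1.58-fold), and Sco2 (1.55-fold). Atpaf2, a factor for the F1 head, was 1.81-fold higher.

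Around complex V, the inhibitor of its reverse reaction, Atpif1, gave 6597, 6037 and 6906 on the clone arrays and 2500.5 and 2573 on the transgenic arrays. Its 2.55-fold difference was larger than that of any complex V subunit by its brightest probe set, a comparison not tested (log2 1.35 ± 0.09, adjusted p 1.11e-05, limma). The ADP/ATP carrier Slc25a4 was 1.6-fold higher, while Slc25a5, the other carrier of this kind, was not called (-0.18 ± 0.08), nor was the phosphate carrier Slc25a3 (0.22 ± 0.08). Higd1a, a small protein bound to complexes III and IV, was lower at -0.38 ± 0.11.

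Of the 13 regulators of mitochondrial gene expression 1 was called higher, 5 lower and 7 neither, or 7.69% higher and 38.5% lower against 22.0% and 21.7% of all genes tested. Pprc1, a coactivator of the PGC-1 family, was higher at 0.83 ± 0.23. Nrf1, which binds the letters searched above, was lower with 416, 389 and 454 on the clone arrays and 645 and 763 on the transgenic arrays (-0.72 ± 0.14, adjusted p 0.0035, limma). Gabpa and its partner Gabpb1 were also lower, at -0.48 ± 0.09 and -0.96 ± 0.13. Yy1 (-0.31 ± 0.09) and Tfb2m (-0.29 ± 0.09) were the other lower genes. Ppargc1a, the coactivator PGC-1 alpha, was near the filter level at 90.6 ± 17.7 (SD, n = 3) and 106.0 ± 13.1 (SD, n = 2) and was not called, and neither were Tfam (-0.07 ± 0.10) and Myc (0.19 ± 0.20). Ucp2, the 13 protein genes of mitochondrial DNA and the subunits without a probe set of their own were not analysed here.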

How the data were processed

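RNA of 3 clone and 2 transgenic cultures was measured on 5 Affymetrix arrays. The authors deposited 1 signal intensity per probe set, on a linear scale and processed with GCOS, per the submitters' processing notes (its settings and the genome build: not given in the sources used here). Of 45101 probe sets, 64 were controls, 34945 had 1 symbol, 932 several and 9160 none. Depth has no counterpart on arrays: the number of arrays limits precision.

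The deposited intensities were turned into log2(signal + 20). Genes with a mean signal at or above the 40th percentile (88.2) were tested with limma 3.58.1 in R 4.3.3 (lmFit, eBayes with trend, two-sided), with Benjamini-Hochberg adjustment over 12446 genes. The fit was tested on simulated data. p-values measure the spread between vials and mice. Genes and lists were chosen with earlier results of these data known. Every subunit may be named. Values of every array are given for the up to 4 called genes with the largest differences in each direction and for the brightest gene of each complex. In other lists up to 3 called genes, plus a few preset ones, are named; Acad9, Yy1, Tfb2m, Slc25a3 and Slc25a5 were named after their values were seen. Alternatives covered scaling, pseudocount, filter, probe set choice, the variance model and each array left out.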

Additional observations from a re-analysis of the deposited data

Results flagged for a closer look

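The control probe sets for 18S ribosomal RNA, which enter no comparison above, were far brighter on the transgenic arrays than on the clone arrays. The ratio of the transgenic mean to the clone mean was 32.9 for the 3′ probe set, 23.6 for the middle one and 6.6 for the 5′ one. The middle probe set gave 23623 and 2275 on the transgenic arrays, which are themselves far apart, and 427 to 692 on the clone arrays. Over the same arrays the 3′ to 5′ signal ratio was 0.763 to 0.869 for Gapdh and 1.046 to 1.143 for Actb. The part of ribosomal RNA in the differences of the respiratory chain genes was not tested.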

How the results depend on the processing

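Of the 46 respiratory chain genes called, 19 (16 higher and 3 lower) kept their call under each of the 18 other settings that gave a value for them. The lower ones were Ndufa4, Cox7a2l and Cox6b2. Cox6b2 passed the filter only through its transgenic signals and was not tested with the filter at the 60th percentile. Of the 29 tested and not called, 13 were called under at least 1 other setting. The count of higher genes, 42, was 26 without the intensity trend in eBayes and 24 with a replicate block. Over all genes, 5448 were called in either direction, 4923 without the trend and 4633 with the block. The replicate numbers name vials and mice and do not pair them: deviations of same-numbered arrays correlated at -0.03 and -0.08. Leaving out 1 clone array gave 28 to 41 higher genes, with 4772 to 5492 of all genes called in either direction. The count of lower genes, 4, was 7 after quantile normalization. The median of complexes I, III, IV and V was 0.41, 0.43, 0.21 and 0.37 after scaling to the 75th percentile, 0.42, 0.43, 0.21 and 0.38 after median scaling, and 0.19, 0.23, 0.05 and 0.17 after quantile normalization. With the mean over probe sets it was 0.26 in complex I, 0.45 in complex III and 0.00 in complex IV. Leaving out 1 array gave 0.25 to 0.40 in complex III. Median and 75th percentile scaling moved the median of all genes from -0.01 to 0.08, and the share of calls that were higher from 50.3% to 58.7% and 58.3%. With the mean over probe sets the direction reversed, without a call, for Acad9 (0.12), Atp5a1 (-0.09), Cox17 (-0.14), Ndufab1 (-0.09), Ndufb8 (-0.11), Uqcc1 (0.09) and Uqcrq (-0.12). Without probe sets ending in _x_at or _s_at it reversed for Ndufa12 (-1.38, adjusted p 0.000474 by limma), Ndufab1 (-0.83, adjusted p 0.00304 by limma) and Uqcrq (-0.18). These settings read other, dimmer probe sets; the cause of the other changes was not tested.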

Other observations

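Genes for the ribosomes of mitochondria and of the cytosol were set beside the respiratory chain after the data were seen. Of 76 genes for mitochondrial ribosomal proteins, which translate the subunits encoded in mitochondrial DNA, 43 (56.6%) were called higher in the clone and 2 lower, with a median difference of 0.38 on the log2(signal + 20) scale. Of the 39 genes tested for cytosolic ribosomal proteins 6 (15.4%) were called higher and 2 lower, with a median of -0.06. Over all genes tested 22.0% were called higher and 21.7% lower. The median signal was 20110 for the cytosolic ones, above that of any respiratory chain gene, and 1708 for the mitochondrial ones. The highest signal on each array was 25836 to 30579. The cytosolic and mitochondrial groups were thus read at unlike signal levels, and whether such bright signals level off was not tested.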
